A study of Mus musculus with 8 samples.

Results

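The 7 genes described here, Mbp, Pmp22, Prx, Mag, Sox10, Egr2 and Cdh19, belong to Schwann cells and to the myelin that these cells wrap around axons. They were chosen by gene symbol, and all 7 are among the 27041 rows of the count table. RNA was taken from skeletal muscle of 9-week-old C57BL/6J mice, which the study's methods give as males. In LSD1skm-/- mice, both alleles of Kdm1a, which encodes the lysine demethylase LSD1, carry loxP sites around exon 1, and the HSA-Cre transgene, driven by the human skeletal actin promoter, removes that exon in myofibers. Ctrl mice carry the same floxed alleles (LSD1 L2/L2) without Cre. The HSA-Cre transgene targets myofibers and not Schwann cells. The labels describe 8 libraries, and counts of 4 Ctrl and 2 LSD1skm-/- libraries were analysed. LSD1skm-/- replicates 3 and 4 were not analysed here.

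Skeletal muscle holds branches of motor and sensory nerves, and each larger axon in them is ensheathed by a row of Schwann cells. SOX10 is the transcription factor that sets Schwann cell identity, EGR2 (also known as KROX20) is the factor that drives myelination, and their targets include genes of the myelin sheath. MBP seals the cytoplasmic faces of compact myelin, PMP22 is a membrane protein of compact peripheral myelin, periaxin (Prx) links the sheath to the Schwann cell surface through DRP2, and MAG lies at the face that touches the axon. Cdh19 encodes a cadherin of Schwann cells and their precursors. The myofiber itself makes no myelin, and in whole muscle such transcripts come largely from the nerve branches within it, although Pmp22 and other products of the Mbp locus are also made elsewhere.

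To show the regulatory sequence of the members whose transcripts are compared below, the 250 bases before the most upstream start site that RefSeq gives on GRCm38.p6 were read for the members with an entry and a window free of annotated exons. They are printed 5′ to 3′ on the strand of the gene. Capitals mark matches to ACAAAG or ACAATG, cores bound by SOX factors, and to GCGTGGG, a core bound by EGR factors, on either strand. The Pmp22 window lies at chr11:63128732-63128981 on the plus strand, that of Prx at chr7:27499074-27499323 on the plus strand and that of Mag at chr7:30914923-30915172 on the minus strand.
Pmp22: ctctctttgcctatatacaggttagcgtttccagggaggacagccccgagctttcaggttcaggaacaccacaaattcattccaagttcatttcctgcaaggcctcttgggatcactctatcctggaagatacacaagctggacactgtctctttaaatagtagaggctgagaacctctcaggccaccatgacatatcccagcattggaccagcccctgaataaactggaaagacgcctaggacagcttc
Prx: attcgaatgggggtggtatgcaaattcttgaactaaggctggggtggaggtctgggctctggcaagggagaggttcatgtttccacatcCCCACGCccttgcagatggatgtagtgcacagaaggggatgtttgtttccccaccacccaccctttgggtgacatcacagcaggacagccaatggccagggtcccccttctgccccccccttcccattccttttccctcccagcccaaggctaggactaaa
Mag: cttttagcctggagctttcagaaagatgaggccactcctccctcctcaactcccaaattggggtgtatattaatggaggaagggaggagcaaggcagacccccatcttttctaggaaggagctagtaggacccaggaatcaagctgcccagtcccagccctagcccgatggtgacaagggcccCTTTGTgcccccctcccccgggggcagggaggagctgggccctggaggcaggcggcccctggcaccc

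The Pmp22 window held none of these letters. The Prx window held the EGR core as its reverse complement, with its leftmost base at -161 from the start site, and the Mag window held the SOX core ACAAAG as its reverse complement, with its leftmost base at -67. The Mag start site in RefSeq lies 49 bases upstream of the 5′ end of the GENCODE gene. Of 32851 promoters read the same way, 16.5% held ACAAAG, 10.7% held ACAATG and 4.3% held GCGTGGG, so these matches are a description and do not mark sites in use.

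On GRCm38, the genes lie on 6 chromosomes. Pmp22 spans 63128982 to 63159547 on chromosome 11 (plus strand). Prx spans 27499324 to 27520214 on the plus strand and Mag 30899176 to 30914873 on the minus strand of chromosome 7. Sox10 spans 79154908 to 79165240 on chromosome 15 (minus strand), Egr2 spans 67535475 to 67542188 on chromosome 10 (plus strand), and Cdh19 spans 110888326 to 110977584 on chromosome 1 (minus strand). Exons of Prx overlap Gm15541 on the other strand, and the sources used here do not say whether reads were counted by strand.

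Mbp spans 82475146 to 82585637 on chromosome 18 (plus strand). Of its stretches of 50 bases, the read length, 0.349% also occur in transcripts of other genes, against 0 for the other members.

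The libraries held 30654828 to 41278769 counts. The 6 myofiber genes fixed as markers (Acta1, Ckm, Myh4, Myh1, Tnnt3 and Mylpf) summed to between 135300 and 164900 CPM, that is, reads of a gene relative to the TMM-scaled size of its library. Kdm1a, the targeted gene, had 22.9, 21.9 and 28.0 CPM in Ctrl replicates 1 to 3 and 2.95 and 3.47 CPM in the LSD1skm-/- libraries. The library labelled Ctrl replicate 4 had 3.65 CPM of Kdm1a, against its label. Over genes with a mean count above 50, pairs of libraries were compared by chi-square per degree of freedom, which is smaller for more similar counts. It was 32.9 and 46.5 for that library with LSD1skm-/- replicates 1 and 2, and 70.3, 67.8 and 95.4 with Ctrl replicates 1 to 3. The cause was not tested. The library labelled Ctrl replicate 4 was kept in the group that its label gives, and the levels, correlations and group differences of the members are also given without it.

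Mbp had 24.5, 8.02, 17.4 and 28.4 CPM in Ctrl replicates 1 to 4, and 12.6 and 18.5 CPM in LSD1skm-/- replicates 1 and 2. The highest and the lowest library were therefore both labelled Ctrl, with a 3.54-fold difference between them, and the LSD1skm-/- libraries lay inside the Ctrl range. Pmp22 had 39.9, 19.8, 37.0 and 54.8 CPM in the Ctrl libraries and 23.7 and 36.4 CPM in the LSD1skm-/- libraries. Prx had 6.58, 2.89, 5.96 and 8.09 CPM in the Ctrl libraries and 3.33 and 4.004 CPM in the LSD1skm-/- libraries. For these 3 structural genes of the sheath, Ctrl replicate 2 was the lowest library, LSD1skm-/- replicate 1 the next, and the library labelled Ctrl replicate 4 the highest.

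Mag was read 19, 6, 14 and 49 times in the Ctrl libraries and 2 and 10 times in the LSD1skm-/- libraries, or 0.548, 0.184, 0.405, 1.12, 0.0628 and 0.265 CPM. Its lowest library was LSD1skm-/- replicate 1, where 2 reads have an exact 95% Poisson interval of 0.242 to 7.22 reads, which covers counting error only. The 17.8-fold range of Mag thus rests on very few reads.

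The transcription factor Sox10 had 0.895, 0.461, 1.01 and 1.504 CPM in the Ctrl libraries and 0.566 and 0.743 CPM in the LSD1skm-/- libraries. Egr2 had 0.664, 0.553, 0.926 and 1.71 CPM in the Ctrl libraries and 0.503 and 0.636 CPM in the LSD1skm-/- libraries. Both factors were highest in the library labelled Ctrl replicate 4, and the groups overlapped. Cdh19 had 1.44, 0.645, 1.36 and 1.504 CPM in the Ctrl libraries and 0.974 and 1.09 CPM in the LSD1skm-/- libraries. Its Ctrl replicate 2 stood alone below the other Ctrl libraries, which lay close together.

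**Figure D1:**
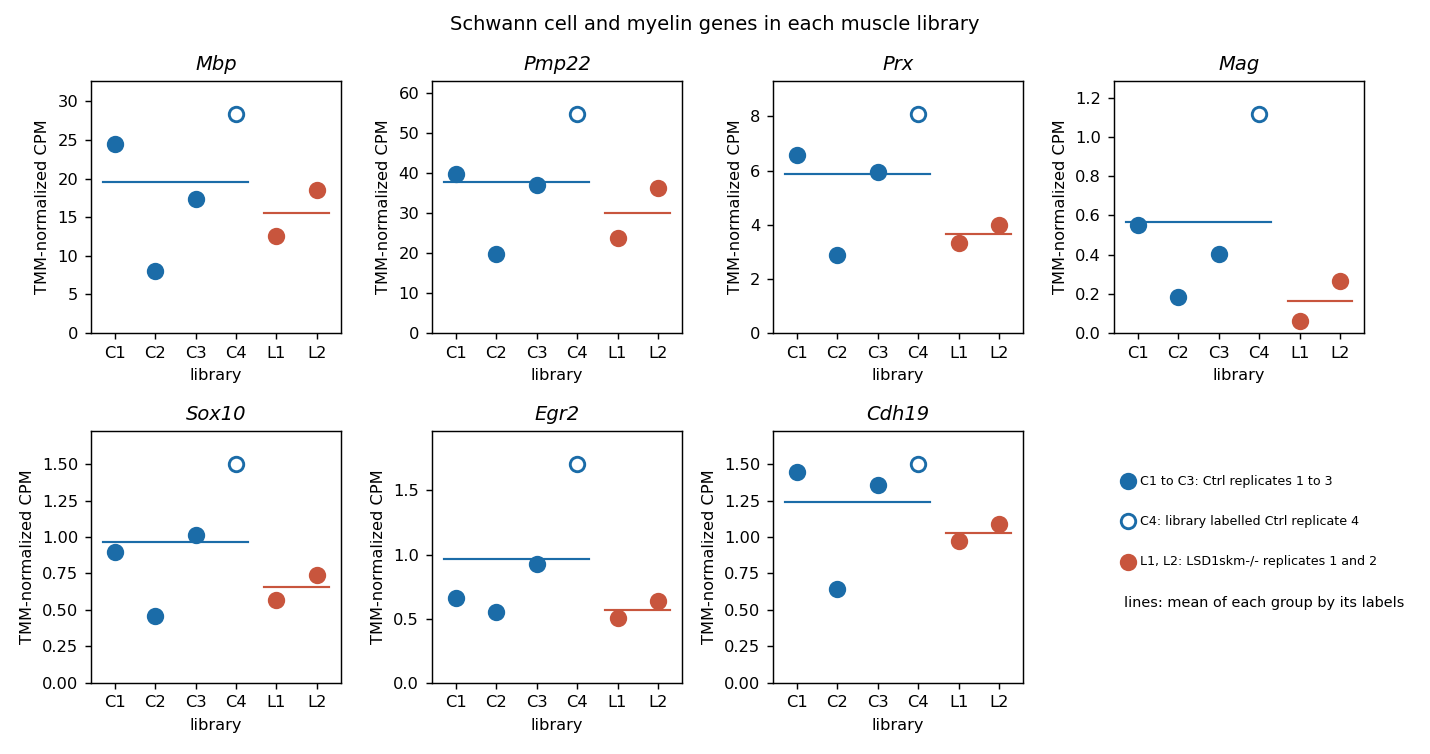
TMM-normalized CPM (y axis, linear, from 0) of the 7 members in each library (x axis); C1 to C3 are Ctrl replicates 1 to 3, the open symbol C4 is the library labelled Ctrl replicate 4, L1 and L2 are LSD1skm-/- replicates 1 and 2, and lines are group means by the labels. All 7 members are highest in C4, 5 are lowest in C2 and 2 in L1.

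In all 7 members the library labelled Ctrl replicate 4 was the highest, and LSD1skm-/- replicate 2 was above LSD1skm-/- replicate 1. The lowest library was Ctrl replicate 2 in 5 members and LSD1skm-/- replicate 1 in Mag and Egr2. This full order (Ctrl replicate 4 highest, Ctrl replicate 2 or LSD1skm-/- replicate 1 lowest, LSD1skm-/- replicate 2 above 1) was written down from the members, so that its presence in 7 of 7 is a description. It was found in 8 of the 17 other myelin and Schwann cell genes with a mean count above 50 and in 4.25% of all 11364 such genes, which include only 3 of the members. In bulk tissue, fewer Schwann cells and less RNA per Schwann cell cannot be told apart.

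The members varied more between libraries than most genes did. The ratio of the highest to the lowest library was 2.77 for Pmp22, 2.80 for Prx, 3.26 for Sox10, 3.40 for Egr2 and 2.33 for Cdh19, where the median over genes with a mean count above 50 was 1.42. Of those genes, 5.71% had a larger ratio than Pmp22, 3.09% a larger ratio than Mbp and 9.38% a larger ratio than Cdh19. Much of this spread lay within the Ctrl group. The SD of log2 CPM over the 4 Ctrl libraries was 0.811 for Mbp, 0.615 for Pmp22 and 0.639 for Prx, against a median of 0.173 over the same genes. Over Ctrl replicates 1 to 3 it was 0.822, 0.555 and 0.64, against a median of 0.134. For the 4 members with few reads, counting error adds to this spread.

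Per kilobase of the longest coding transcript, the order of levels in the libraries labelled Ctrl was led by Pmp22 with 20.8 ± 7.89 CPM per kb (SD, n = 4), followed by Mbp with 4.08 ± 1.87 (SD, n = 4) and Prx with 1.08 ± 0.402 (SD, n = 4). Sox10 at 0.348 ± 0.154 CPM per kb, Egr2 at 0.325 ± 0.176 and Cdh19 at 0.316 ± 0.102 (SD, n = 4 each) did not differ from each other beyond their spread. Mag had 0.231 ± 0.164 CPM per kb (SD, n = 4), a mean below those of the transcription factors but within their spread. Pmp22 is also made by other cells than Schwann cells, such as fibroblasts and endothelial cells, so its level per kb is not that of nerve alone. Over Ctrl replicates 1 to 3, without the library whose Kdm1a goes against its label, the means were 17.7 ± 5.97 CPM per kb for Pmp22, 3.47 ± 1.72 for Mbp and 0.946 ± 0.364 for Prx (SD, n = 3 each). The other means were then 0.294 ± 0.112 for Cdh19, 0.284 ± 0.104 for Sox10, 0.241 ± 0.0645 for Egr2 and 0.156 ± 0.0753 for Mag (SD, n = 3 each), again within each other's spread except that the mean of Mag lay further below those of the other 3 than its own SD.

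The members moved together over the 6 libraries. For each of the 21 pairs, Pearson's r and Spearman's rho of log2 CPM were computed with exact two-sided permutation tests over all 720 arrangements, for which the smallest p of Pearson's r is 0.00139. Pearson's r ranged from 0.666 (Egr2 with Cdh19) to 0.968 (Mbp with Pmp22), with a median of 0.904, and Spearman's rho from 0.771 to 1, with a median of 0.943. After Benjamini-Hochberg adjustment over the 21 pairs, 17 had a permutation p under 0.05 by Pearson's r and 19 by Spearman's rho. The members were chosen with earlier results of these data known, and pairs of other genes were not tested. These counts therefore do not show that the members move together more than other genes do. The pairs that missed the threshold by Pearson's r were Mbp with Mag, Mbp with Egr2, Mag with Cdh19 and Egr2 with Cdh19.

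For Mbp with Pmp22, r was 0.968 (exact permutation p = 0.00278, adjusted p = 0.0109), rho was 0.943 (exact permutation p = 0.0167, adjusted p = 0.025), and r was 0.912 over the 4 libraries that remain without Ctrl replicates 2 and 4, those farthest from the median of Mbp. Sox10 with Egr2, the factors that act together on myelin genes, had r = 0.919 (exact permutation p = 0.00417, adjusted p = 0.0109) and rho = 0.943 (exact permutation p = 0.0167, adjusted p = 0.025), and r was 0.931 without the same libraries. For Mbp with Egr2, r was 0.689 (exact permutation p = 0.128, adjusted p = 0.134), rho was 0.771 (exact permutation p = 0.103, adjusted p = 0.103), and r fell to 0.412 without them. Without its 2 farthest libraries, that was the only 1 of the 21 pairs with r under 0.5, and the median over pairs was 0.895. The points are libraries of both groups, share depth and scaling, and neither group has enough libraries for a correlation of its own. Over the 5 libraries without the one labelled Ctrl replicate 4, r was 0.961 for Mbp with Pmp22, 0.854 for Sox10 with Egr2 and 0.51 for Mbp with Egr2, the lowest of the 21 pairs, with a median of 0.854.

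Genes with the profile most like that of the members were ranked by Pearson's r over the 6 libraries with the mean z-scored log2 CPM of Mbp, Pmp22 and Prx, the members with a mean count above 50. Of 11361 genes ranked, the 10 highest included Sult1a1 (r = 0.99), Tbx3 (0.985), Gja4 (0.968), Pold4 (0.967), Itgb4 (0.965), Gm49797 (0.963), Plekha4 (0.962), Mal (0.959) and Drp2 (0.957). Mal, which encodes a proteolipid of compact myelin, Drp2, which encodes the periaxin partner at the outer face of the sheath, and Itgb4, which encodes the integrin subunit that binds the basal lamina of the Schwann cell, come from the myelin and Schwann cell lists. Their libraries differed by 3.57-fold (Mal), 4.50-fold (Drp2) and 1.91-fold (Itgb4), while Pold4 differed by 1.32-fold with nearly the same profile. With 6 points such values are a description. Over the 5 libraries without the one labelled Ctrl replicate 4, 2 of the 10 (Sult1a1 and Plekha4) stayed among the 10 highest, and r was 0.942 for Mal, 0.931 for Drp2 and 0.943 for Itgb4.

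The comparison of the groups addresses the change in muscle transcripts when LSD1 is lost from myofibers. Only Mbp, Pmp22 and Prx, 3 of the 7 members, passed the limit of a mean count above 50, and none of the 3 was called. The study's methods set a limit of 50 raw reads without naming the libraries it applies to, and its use on the mean over libraries was chosen here. In edgeR's quasi-likelihood test the log2 fold change (LSD1skm-/- minus Ctrl) was -0.33 ± 0.44 (SE) for Mbp (adjusted p = 0.816), -0.34 ± 0.36 for Pmp22 (adjusted p = 0.771) and -0.68 ± 0.37 for Prx (adjusted p = 0.584). Over all 11364 genes, edgeR called 0 (0%) at an adjusted p under 0.05, 1011 had an unadjusted p under 0.05, and 717 (6.31%) had an unadjusted p under 0.05 with a fold change above 1.3 or below 0.77, the study's limits. None of the 3 members met that second rule. DESeq2 called 46 genes (0.405%) at an adjusted p under 0.05 and none of the 3 members.

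Without the library labelled Ctrl replicate 4, where the members were highest, the differences shrank. The log2 fold change was then -0.09 for Mbp (SE 0.41, adjusted p = 0.924), -0.10 for Pmp22 (SE 0.31, adjusted p = 0.888) and -0.49 for Prx (SE 0.34, adjusted p = 0.481, all from edgeR). Again none of the 3 was called, where 5.39% of all genes were called at an adjusted p under 0.05 and 15.2% met the rule of unadjusted p and fold. The LSD1skm-/- libraries also moved these values, since leaving out replicate 1 gave -0.09 for Mbp and -0.07 for Pmp22, and leaving out replicate 2 gave -0.64 and -0.68. These standard errors leave room for a difference in either direction for Mbp and Pmp22.

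Mag, Sox10, Egr2 and Cdh19 had mean counts of 16.7, 32.2, 31.3 and 42.7 and were tested in a fit over every row with a count. There, edgeR gave log2 fold changes of -1.75 for Mag (SE 0.67, adjusted p = 0.378), -0.58 for Sox10 (SE 0.45, adjusted p = 0.805), -0.78 for Egr2 (SE 0.46, adjusted p = 0.775) and -0.28 for Cdh19 (SE 0.38, adjusted p = 0.816). None of the 7 members was called at an adjusted p under 0.05, against 0.551% of all rows. Prx and Mag met the rule of unadjusted p under 0.05 and fold, against 7.06% of all rows. Without the library labelled Ctrl replicate 4, the log2 fold change was -1.16 for Mag, -0.27 for Sox10, -0.33 for Egr2 and -0.16 for Cdh19, none of the 7 members was called (7.34% of all rows were), and Prx alone met the rule of unadjusted p and fold, which 12% of all rows met.

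Leaving out Ctrl replicate 2, the Ctrl library with the lowest summed level of the members, changed this outcome in a fit that was not planned beforehand. Dropping that library raises the Ctrl mean of the members, so their fold changes move down by construction. In the fit over every row, leaving it out gave adjusted p-values from edgeR under 0.05 for Mbp (log2 fold change -0.60, adjusted p = 0.036), Pmp22 (-0.56, adjusted p = 0.0383), Prx (-0.92, adjusted p = 0.0166) and Mag (-2.04, adjusted p = 0.0335), 4 of the 7 members, where 2.08% of all rows were called. In the fit over genes with a mean count above 50, leaving it out gave an adjusted p of 0.76 for Mbp in edgeR and called no member at an adjusted p under 0.05. Leaving out any other library called no member in either fit.

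**Figure D2:**
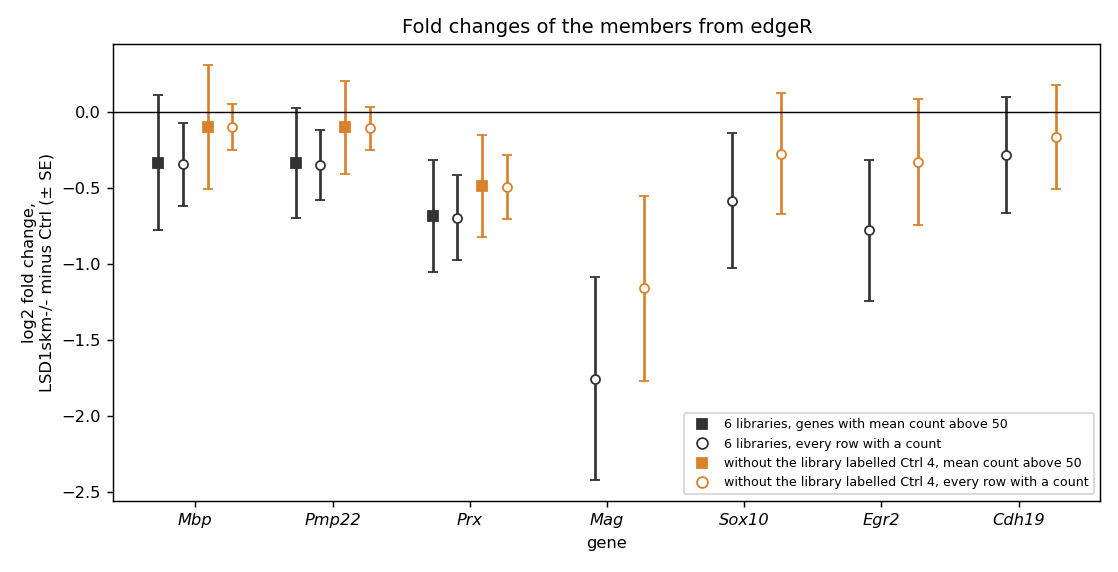
Log2 fold change, LSD1skm-/- minus Ctrl, with its standard error (y axis) for each member (x axis) from edgeR; squares are the fit over genes with a mean count above 50, which Mag, Sox10, Egr2 and Cdh19 did not enter, circles the fit over every row with a count, black all 6 libraries, and orange the fits without the library labelled Ctrl replicate 4. All values lie below 0, between -1.75 and -0.09, and each member lies nearer to 0 in orange.

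No member had groups that did not overlap, where the groups of 17.8% of the genes with a mean count above 50, which include only 3 of the 7 members, did not overlap. Over the other 5 libraries, leaving out the one labelled Ctrl replicate 4, that share was 37.7%, and again no member was among them. The LSD1skm-/- libraries lay inside the range of the Ctrl libraries for 5 of 7 members and, for Mag and Egr2, 1 of them lay below it. The summed CPM of the 7 members was 74.5, 32.5, 64.0 and 97.1 in the Ctrl libraries and 41.7 and 61.6 in the LSD1skm-/- libraries.

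Of 40 other myelin and Schwann cell genes, listed by their role, 17 had a mean count above 50. At an adjusted p under 0.05 edgeR called none of the 17, and Cadm4, a cell adhesion molecule of the internode, met the rule of unadjusted p and fold. Their median log2 fold change was -0.29, with 7 higher and 10 lower, where the median over all genes tested was -0.01, and without the library labelled Ctrl replicate 4 it was -0.20. Without LSD1skm-/- replicate 1 it was -0.12. In the fit over every row, 30 of the 40 were lower and 10 higher, where 55.3% of all rows were lower. In that fit 9 lower genes (among them Mal, Gjb1, Cldn19, Drp2, Gldn, Cadm4, Zeb2 and Kcna1) and 1 higher gene (Ngfr) met the rule of unadjusted p and fold, which 7.06% of all rows met, and none had an adjusted p under 0.05.

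Among the proteins of the sheath, Mal had 2.80, 1.32, 2.89 and 4.72 CPM in the Ctrl libraries and 1.32 and 2.02 CPM in the LSD1skm-/- libraries, with Ctrl replicate 2 and LSD1skm-/- replicate 1 nearly level as the lowest (log2 fold change -0.82, SE 0.47, adjusted p = 0.611 in edgeR, and -0.48 without the library labelled Ctrl replicate 4). Ncmap, a small myelin protein, varied less, from 1.13 to 2.45 CPM, and was highest in Ctrl replicate 1 (log2 fold change -0.44, SE 0.35, adjusted p = 0.689 in edgeR). The library labelled Ctrl replicate 4 therefore did not stand out for every myelin gene.

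At the outer face and the junctions of the sheath, Drp2, the periaxin partner, had 5.74, 2.09, 5.78 and 9.41 CPM in the Ctrl libraries and 3.11 and 3.29 CPM in the LSD1skm-/- libraries (log2 fold change -0.85, SE 0.50, adjusted p = 0.613 in edgeR, and -0.50 without the library labelled Ctrl replicate 4). Cadm4 had 3.61, 2.34, 3.30 and 3.62 CPM in the Ctrl libraries and 1.51 and 1.99 CPM in the LSD1skm-/- libraries, so that the groups did not overlap (log2 fold change -0.88, SE 0.26, adjusted p = 0.557 in edgeR). Of the 17 listed genes with a mean count above 50, 2 had groups that did not overlap, against 17.8% of all such genes. These were Cadm4, lower in the LSD1skm-/- libraries, and Aspa, higher in them. Without the library labelled Ctrl replicate 4 the adjusted p of Cadm4 from edgeR was 0.135, and 0.027 in the fit over every row, where 7.34% of rows were called. In that same fit over every row without the library labelled Ctrl replicate 4, Zeb2 (log2 fold change -0.50, adjusted p = 0.0253) was also lower at an adjusted p under 0.05 from edgeR.

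Genes of the Schwann cell surface differed in how closely they followed the members. Erbb3, the receptor through which axonal neuregulin acts on Schwann cells, had 3.10 to 5.17 CPM in the Ctrl libraries and 4.68 and 4.75 CPM in the LSD1skm-/- libraries (log2 fold change 0.21, SE 0.22, adjusted p = 0.77 in edgeR, and 0.35 without the library labelled Ctrl replicate 4). Its likeness to the members was r = 0.634, and that of Itgb4 was 0.965, of Lpar1 0.445 and of L1cam 0.0265. Without the library labelled Ctrl replicate 4, r was 0.456 for Erbb3, 0.943 for Itgb4, 0.173 for Lpar1 and 0.0946 for L1cam. Ngfr, the low-affinity neurotrophin receptor of immature and non-myelinating Schwann cells, which was singled out after its values were seen, was read 7, 6, 13 and 24 times in the Ctrl libraries and 28 and 37 times in the LSD1skm-/- libraries. Its groups did not overlap, and no share of such genes was taken at its mean count of 19.2. Over genes with a mean count above 50, which do not include Ngfr, that share was 17.8%. The direction of Ngfr was opposite to that of Mal and Drp2. The log2 fold change was 1.46 (SE 0.47, adjusted p = 0.224 in edgeR's fit over every row). Without the library labelled Ctrl replicate 4 it was 1.85 (SE 0.45, adjusted p = 0.00125 in edgeR). That last fit was not planned, and 7.34% of all rows were called in it.

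Among transcription factors, Nab2, a co-regulator of EGR proteins, had a log2 fold change of 0.27 (SE 0.33, adjusted p = 0.797 in edgeR, and 0.50 without the library labelled Ctrl replicate 4), and Zeb2, a repressor needed for Schwann cell maturation and made by many cell types, of -0.39 (SE 0.17, adjusted p = 0.557 in edgeR). Scn7a, a sodium channel gene of non-myelinating Schwann cells, and Matn2 had log2 fold changes of 0.14 (SE 0.21) and 0.12 (SE 0.32), with adjusted p-values of 0.838 and 0.912 in edgeR. Their log2 fold changes were 0.17 and 0.37 in the fit that leaves out the library labelled Ctrl replicate 4. The sum of their list, non-myelinating and immature Schwann cells, had the order of the members in the Ctrl libraries (12.81, 7.927, 12.15 and 14.06 CPM). It was 10.62 and 13.37 CPM in the LSD1skm-/- libraries. Aspa, the 1 gene of the myelin lipid list with a mean count above 50, had r = -0.253 with the members, which sets it apart from the sheath genes. Without the library labelled Ctrl replicate 4, r was -0.32. Aspa had 7.26 to 8.08 CPM in the Ctrl libraries and 8.14 and 9.47 CPM in the LSD1skm-/- libraries, so that the groups did not overlap (log2 fold change 0.20, adjusted p = 0.64 in edgeR).

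**Figure D3:**
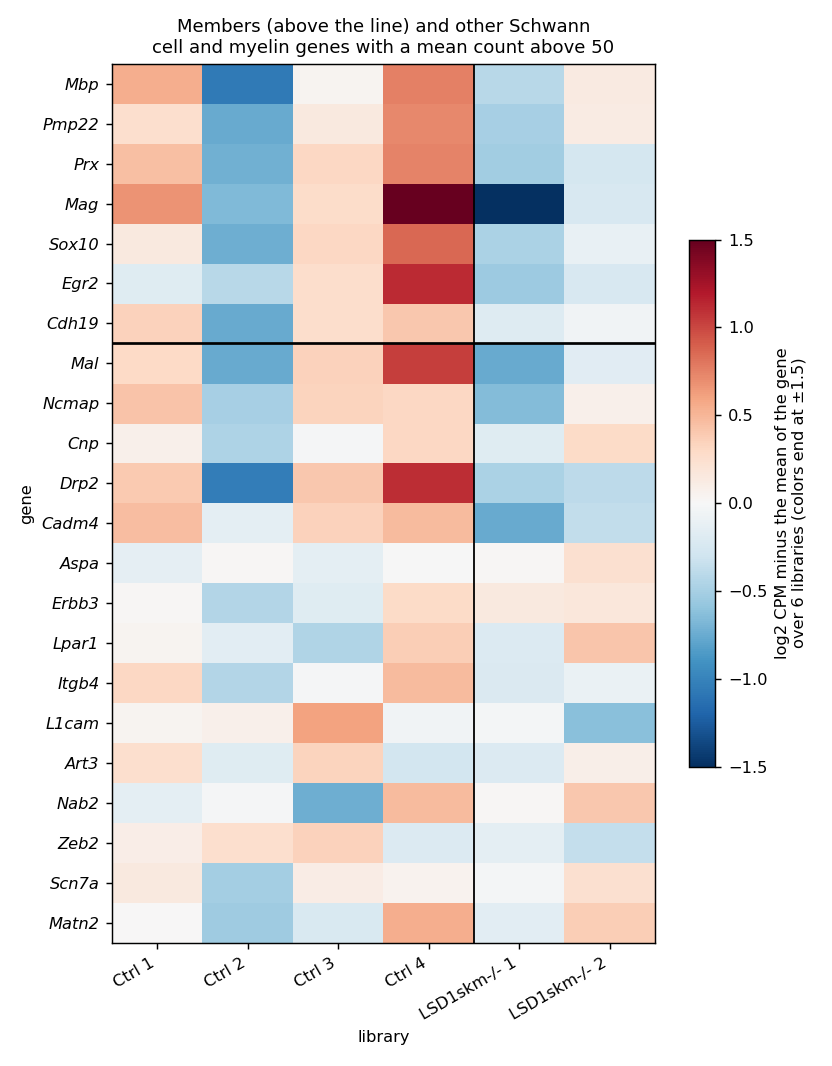
Log2 CPM of each gene minus its mean over the 6 libraries (color, red higher, blue lower) for the 7 members, above the horizontal line, and 15 other myelin and Schwann cell genes with a mean count above 50; columns are libraries, the vertical line parts Ctrl from LSD1skm-/- libraries, and Ctrl 4 is the library labelled Ctrl replicate 4. Sheath genes such as Mal and Drp2 repeat the pattern of the members, with Ctrl 4 high and Ctrl 2 and LSD1skm-/- 1 low, whereas Aspa, L1cam and Zeb2 do not.

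Markers of other cells were compared over the same libraries. Axons carry little RNA, and of the 7 neuron and axon markers in the table none had a mean count above 50, with Nefl at 0 to 3 reads and Snap25 at 0 to 1 read per library. The oligodendrocyte markers Mog, Mobp, Opalin and Myrf, which would mark central myelin, had at most 3 reads in every library, and of the melanocyte markers, whose lineage also uses SOX10, Pmel and Mlana had at most 2 reads and Dct 5 to 11. Of the coats of the nerve, Slc2a1, the glucose transporter of the perineurium and of many other cells, had 5.31 to 8.30 CPM, and Cldn1 1.10 to 1.96 CPM. The summed perineurium and endoneurium list ranged from 10.4 to 14.8 CPM, a 1.42-fold range, and was lowest in Ctrl replicate 2. It was 11.3 CPM in the library labelled Ctrl replicate 4, where the members were highest, and its maximum was in Ctrl replicate 1. Slc2a1 was lowest in the library labelled Ctrl replicate 4. Sox9 ran from 1.75 CPM in Ctrl replicate 2 to 4.04 CPM in Ctrl replicate 1. With all libraries, the likeness to the members was r = -0.00503 for Slc2a1, 0.719 for Cldn1 and 0.789 for Sox9. Without the library labelled Ctrl replicate 4, r was 0.932 for Slc2a1, 0.759 for Cldn1 and 0.961 for Sox9. The parting of this list from the members thus rested largely on that library.

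In the library labelled Ctrl replicate 4, the summed markers of some other cells were also high. The endothelial sum was 210 CPM there, against 158 to 175 CPM in Ctrl replicates 1 to 3 and 139 and 136 CPM in the LSD1skm-/- libraries, with 0 of its 6 defining markers near 0. The fibroblast sum (all 6 markers with a mean count above 50) was 614 CPM there, against 404 to 435 CPM in Ctrl replicates 1 to 3 and 564 and 663 CPM in the LSD1skm-/- libraries. Most of that rise lay in Col3a1 (226 CPM, against 101 to 107 in Ctrl replicates 1 to 3) and Col1a1 (99.2, against 39.3 to 46.1). Lum was also higher (15.4, against 9.73 to 12.2 CPM), and Pdgfra and Dpt were only slightly higher. Dcn (220 CPM, against 195 to 232) lay within the range of Ctrl replicates 1 to 3. The adipocyte sum of 6 markers was 137 CPM there, 97.4, 98.1 and 6.07 CPM in Ctrl replicates 1 to 3, and 2.92 and 8.75 CPM in the LSD1skm-/- libraries. Ctrl replicates 1 and 2 were thus alike in adipocyte transcripts while the members differed 2.29-fold between them. The part of these cells in the members' levels was not tested.

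The immune sum of 6 markers ranged from 34.1 to 96.1 CPM with its maximum in Ctrl replicate 1, and the blood sum of 4 markers from 25.3 to 60.4 CPM with its maximum in LSD1skm-/- replicate 2. The immune sum did not have the order of the members. The blood sum had it among the Ctrl libraries (39.8, 25.3, 34.1 and 47.1 CPM), and the part of blood in the members' levels was not tested. Genes that rise when muscle loses its nerve were described as well. Chrng, the fetal acetylcholine receptor subunit that marks denervated muscle, had 2 to 6 reads in every library, and the sum of the 7 listed genes ranged from 88.6 CPM in Ctrl replicate 2 to 114 CPM in LSD1skm-/- replicate 1. Of the 6 tested, 4 had a log2 fold change above 0 and 2 below it, and edgeR called none with all 6 libraries. Without the library labelled Ctrl replicate 4, where 5.39% of all genes were called, it called Chrna1, the adult and fetal receptor subunit (log2 fold change 0.69, adjusted p = 0.0367), and Musk, the kinase of the neuromuscular synapse, had -0.43 (adjusted p = 0.461). In the fit over every row without that library, where 7.34% of rows were called, edgeR called Chrna1 higher (log2 fold change 0.68, adjusted p = 0.000122) and Musk lower (-0.44, adjusted p = 0.0348).

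Egr2 also belongs to the family of immediate early genes in stimulated cells, and of the listed genes of that family, 5 of 7 had a mean count above 50. Fos had 3.64, 43.2, 5.03 and 47.7 CPM in the Ctrl libraries and 22.5 and 2.70 CPM in the LSD1skm-/- libraries, and Egr1 had 3.61, 23.6, 4.37 and 25.2 CPM in the Ctrl libraries and 12.9 and 4.11 CPM in the LSD1skm-/- libraries. Junb varied little, from 5.63 CPM in the library labelled Ctrl replicate 4 to 8.05 CPM in Ctrl replicate 2, and Nr4a1 ran from 126 CPM in Ctrl replicate 2 to 280 CPM in LSD1skm-/- replicate 1. These 4 genes thus did not share an order of libraries. In Ctrl replicate 2, where Fos was high, Egr2 was 0.553 CPM, the lowest of the Ctrl libraries. In the library labelled Ctrl replicate 4, Fos and Egr2 were both highest, and the part of such a response in the Egr2 level was not tested.

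**Figure D4:**
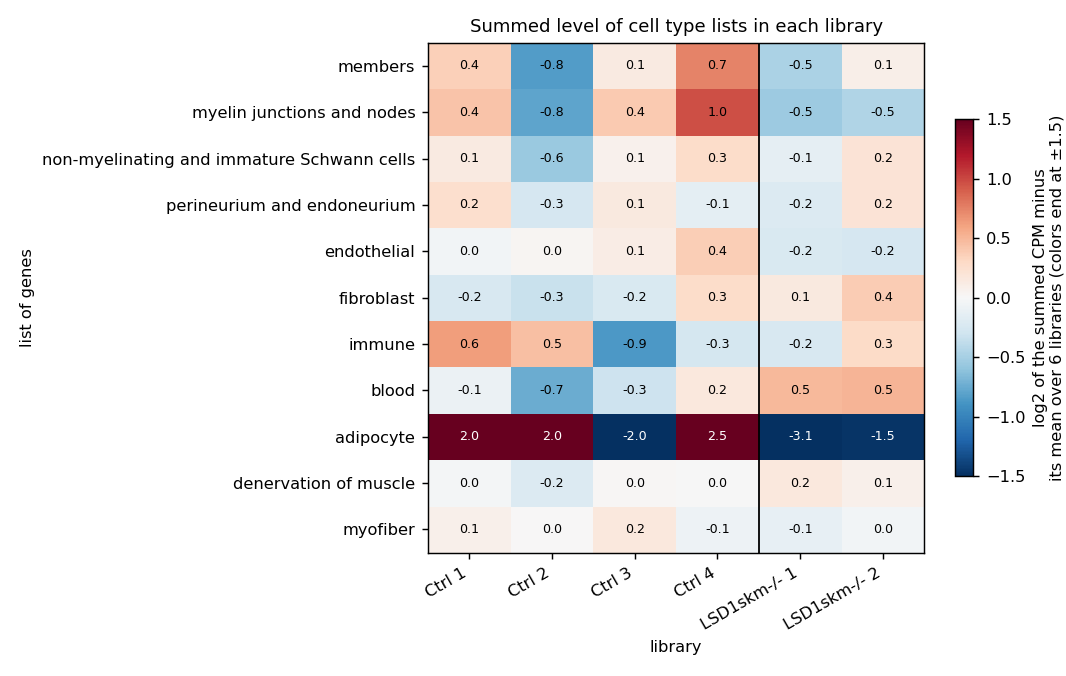
Log2 of the summed CPM of each list minus its mean over the 6 libraries (numbers and color, red higher, blue lower) for the members and for lists of other myelin, nerve and non-nerve genes; columns are libraries, and the vertical line parts Ctrl from LSD1skm-/- libraries. Myelin junction genes and the list of non-myelinating and immature Schwann cells follow the order of the members in the Ctrl libraries. So does the blood list there, although it is highest in the LSD1skm-/- libraries, whereas the adipocyte and immune lists do not.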

How the data were processed

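RNA-seq of skeletal muscle was analysed for 6 of 8 labelled libraries (4 Ctrl, 2 LSD1skm-/-). Per the labels, stranded poly(A) libraries were made, base calls were converted with bcl2fastq 2.20.0.422 and mm10 was the genome. The study's methods describe removal of adapter dimers, name htseq-count 0.9.1 for mapping and HOMER for quantification, and keep uniquely aligned reads of 50 bases. The authors deposited whole-number counts of reads per gene symbol, not normalized, in 27041 rows, of which 29 share a symbol.

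Counts were scaled by TMM, and log2 CPM used a prior count of 2. Groups were compared with edgeR 4.0.16 in R 4.3.3, by the quasi-likelihood test with the group alone in the model, over the 11364 genes with a mean count above 50, with Benjamini-Hochberg adjustment, and, for members below that limit, over every row with a count. Alternatives were DESeq2 1.42.0, limma-voom (limma 3.58.1), other scalings and filters, a replicate block and each library left out. Correlations used exact permutation in scipy 1.17.1. The members and gene lists were chosen with earlier results of these data known. Named genes were the members, up to 4 genes of each list in listed order with a mean count above 50 (or near 0 for lists of absent cells), Kdm1a and the 10 genes most like the members. Ngfr, and the genes named because they met a rule, were named after their values were seen. Coordinates are from GENCODE vM21 and promoters from RefSeq GRCm38.p6, which matched 4 members. The labels do not say that each library is a separate mouse, so p-values measure the spread between these libraries. Libraries held 30654828 to 41278769 counts. The values of 2 genes of the myelin lists are not reported here, and the genes remain in the counts over their lists.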

Additional observations from a re-analysis of the deposited data

Results flagged for a closer look

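Of 37 values examined over the 4 Ctrl libraries (the members, the other myelin and Schwann cell genes with a mean count above 50, Kdm1a and the sums of the cell type lists), 5 had a library that stood apart, by the gap between the extreme library and its nearest neighbour as a share of the range of log2 CPM, above Dixon's limit of 0.829. Chance flags about 1 in 20 groups. Among the members, Cdh19 stood out with a gap of 0.878, since Ctrl replicate 2 lay below the others. The same library was the low one for Ncmap (0.873) and for Scn7a (0.858). The library labelled Ctrl replicate 4 was the low one for Kdm1a (0.879), against its label. Ctrl replicate 3 was the low one for the summed adipocyte list (0.891). The groups of 2 LSD1skm-/- libraries were too small to be examined in this way.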

How the results depend on the processing

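No member was called at an adjusted p under 0.05 under DESeq2, limma-voom, 3 other scalings, 2 other filters, the replicate block, or any Ctrl library left out of the fit over genes with a mean count above 50. The median log2 fold change of the tested members and of the other Schwann cell and myelin genes moved by less than the SD of their mean level over the Ctrl libraries. These SDs, 0.685 and 0.32, exceed the size of the medians themselves (-0.34 and -0.29). Even a change of sign can stay within that limit, so it is a weak check of stability. Prx was the 1 member of these 3 whose log2 fold change was below 0 in all 16 alternatives. With the replicate block, which uses the libraries numbered 1 and 2, it was 0.113 for Mbp and 0.067 for Pmp22, and in the same 4 libraries without the block (chosen after seeing the data) it was 0.0145 for Pmp22. The replicate numbers do not mark shared animals, since the groups differ in genotype. Deviations from the group means in same-numbered libraries correlated at -0.233 and -0.033. With 2 LSD1skm-/- libraries these deviations mirror each other, so the values cannot show whether the numbers mark a shared batch. Leaving libraries out of the fit over every row was not planned beforehand. In the fit over every row, 0 to 4 members were called as libraries were left out in turn, the 4 without Ctrl replicate 2, and the number past an unadjusted p under 0.05 and the fold limits was 2 with all libraries, 0 with filterByExpr and 0 to 5 as libraries were left out. In the fit over genes with a mean count above 50 that number was 0 to 1, with 1 (Prx) without Ctrl replicate 2.

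Over all genes, the number with an adjusted p under 0.05 was 46 with DESeq2, 1056 with DESeq2 without the library labelled Ctrl replicate 4, 149 with every row, 727 with the replicate block, 504 with those 4 libraries unblocked and 0 to 612 as libraries were left out, with 6 when Ctrl replicate 3 and 612 when the library labelled Ctrl replicate 4 was dropped. The number past an unadjusted p under 0.05 and the fold limits was 1909 with every row, 1702 with the block, 1692 with those libraries unblocked, 1664 with DESeq2 without the library labelled Ctrl replicate 4 and 340 to 1724 as libraries were left out, lowest without LSD1skm-/- replicate 2 and 474 without Ctrl replicate 1. Of the 10 genes most like the members, 2 stayed among the 10 highest by Pearson's r without the library labelled Ctrl replicate 4, and 5 by Spearman's rho, where 49 genes tied. The cause of these shifts was not tested. The small number of LSD1skm-/- libraries limits every comparison, and reads limit Mag, Sox10, Egr2 and Cdh19.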
